A study of Mus musculus with 6 samples.

Results

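Proteasome genes were examined in mNET-seq libraries from mouse embryonic stem cells that lack or carry Mettl3, the methyltransferase that places m6A on RNA. The members were the protein-coding genes whose symbols start with Psma, Psmb, Psmc, Psmd, Psme, Psmf or Psmg, each read from its protein-coding transcript with the longest genomic span. They came to 47 of the 12974 coding genes with a coding transcript in the deposited table. The core particle had 14 members, the base of the regulatory particle 9 and its lid 8. The other members were 5 tissue-specific core subunits, 7 assembly chaperones, 3 activators or inhibitors, and Psmc3ip, a meiotic recombination factor that shares the symbol but is not a proteasome subunit.

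The 3 groups were a first Mettl3 knockout (KO1), a second Mettl3 knockout (KO2) and Control cells, with 2 libraries each. All were C57BL/6 embryonic stem cells kept in serum with LIF, CHIR99021 and PD0325901, inhibitors of GSK3 and MEK that hold such cells in a naive state. The labels give neither the alleles, nor whether KO1 and KO2 are clones, nor whether the 2 libraries of a group came from separate cultures, so the p-values reflect the spread between libraries of a group, which may be technical. In mNET-seq, chromatin is cut with nuclease, RNA polymerase II is precipitated, and the short RNA it holds is sequenced, which maps polymerases along genes.

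The proteasome breaks down proteins that carry ubiquitin chains. Its barrel-shaped core stacks rings of alpha subunits, which gate the entrance, around rings of beta subunits, of which Psmb5, Psmb6 and Psmb7 cut peptides. A regulatory particle sits on the ends: its base holds a ring of ATPases that unfold the substrate, and its lid removes the ubiquitin. Subunits are needed in fixed proportions, and in mammals Nfe2l1 is known to raise the transcription of proteasome genes together when the proteasome is inhibited.

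The measurement is the deposited escaping index, a log2 ratio within a transcript that is higher where more signal lies downstream relative to the transcript's start. It is neither an RNA level nor a total of polymerase, and all levels and differences below are on its log2 scale. The sources used here do not give the windows behind the ratio or the read depth. Replicate libraries correlated across the 12974 genes at r = 0.9746 in KO1, 0.9775 in KO2 and 0.969 in Control. The median index over these genes was 4.41 and 4.42 in the KO1 libraries, 4.24 and 4.23 in the KO2 libraries, and 4.79 and 4.80 in the Control libraries. The whole table was therefore lower in the knockouts, with a median difference from Control of -0.37 in KO1, -0.58 in KO2 and -0.47 for their average, and each proteasome value is to be read against that shift. Mettl3 itself had an index of 2.44 and 2.42 in KO1, 2.10 and 2.30 in KO2, and 2.69 and 2.46 in Control, which, as a ratio within the transcript, does not check the deletion. The pluripotency genes Pou5f1, Sox2, Nanog, Esrrb and Zfp42 were all listed in the table, but an index does not measure whether they were expressed.

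In Control cells the index followed transcript length, and 13 of 14 core genes, 7 of 8 lid genes and 7 of 9 base genes lay above the line of genes of their length. Over all coding genes the Control index rose by 2.77 for each 10-fold increase in span (Pearson's r = 0.688 and Spearman's rho = 0.681, a description across genes, which are not independent replicates). Among the members r was 0.753 and rho 0.737. The members were shorter than other genes, with a median span of 12315 bp against 22387 bp over all coding genes. The median distance from the regression line was 0.57 for the members and 0.11 for all coding genes. Under that line lay 14 of the 47 members and 6090 of all 12974 coding genes. The median distance was 1.34 for the 3 activators or inhibitors, 1.10 for lid genes, 0.91 for core genes, 0.57 for base genes and -0.21 for chaperones. The core gene Psma2 (-0.83) and the lid gene Psmd12 (-0.26) were the exceptions under the line. All 5 tissue-specific core genes lay under the line, with a median of -1.11. The levels also differ between coding models of a gene, as described further on, and the part of the model or of overlapping genes in the distances was not tested.

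**Figure D1:**
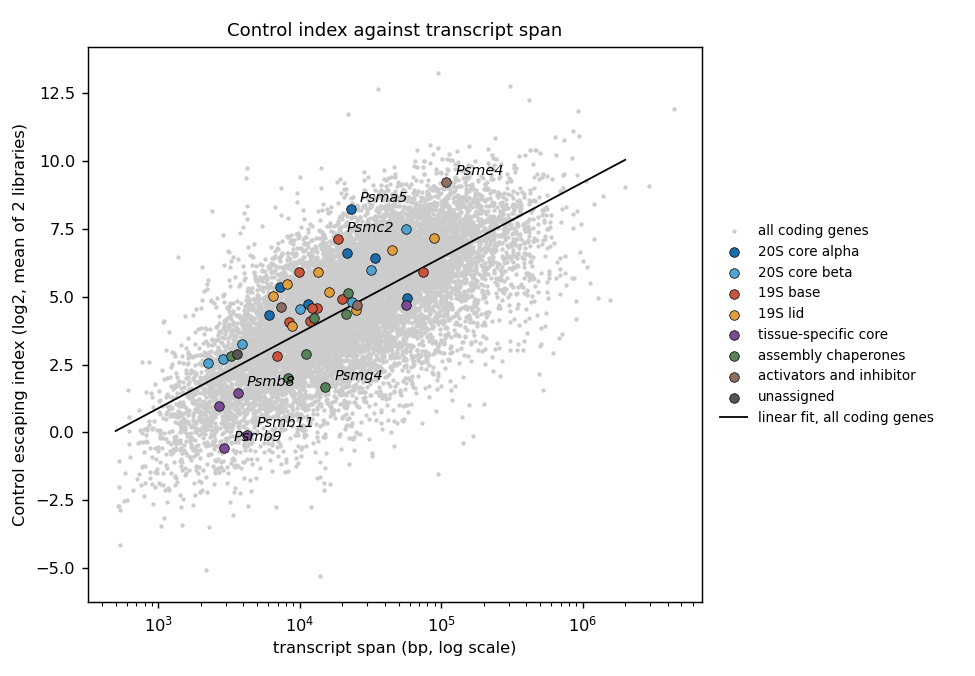
Mean escaping index of the 2 Control libraries (log2) against transcript span (bp, log scale), with all 12974 coding genes in grey, proteasome genes coloured by role, and the linear fit over all coding genes as a line. Core and lid genes lie mostly above the line, and the 5 tissue-specific core genes (among them Psmb8, Psmb9 and Psmb11) lie under it.

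The highest Control levels belonged to Psme4, Psma5 and Psmb7. Psme4 encodes the activator PA200, which caps the core in place of the regulatory particle. Its longest transcript runs over 108636 bp. Psma5, an alpha ring subunit, had an index of 7.87 and 8.64 in KO1, 8.10 and 8.64 in KO2, and 7.77 and 8.69 in Control. The replicates of each group were further apart than the group means, so the 3 groups were not distinguishable for this gene (KO1 difference 0.02 ± 0.43 and KO2 difference 0.13 ± 0.43, SE). Psma5 also lay furthest above the length line of all members, by 3.56, and it overlaps 1700010K24Rik on the opposite strand.

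The lowest Control levels belonged to Psmb9, Psmb11 and Psmb10. Psmb9 and Psmb10 are the immune counterparts of Psmb6 and Psmb7, and Psmb11 is the thymus subunit. Psmb9 had an index of -0.87 and -0.63 in KO1, -1.47 and -0.12 in KO2, and -0.77 and -0.37 in Control, so all 3 groups overlapped. Psmb11 had 0.00 and -0.41 in KO1, 1.22 and 0.00 in KO2, and 0.42 and -0.58 in Control. In 2 of those libraries, 1 of KO1 and 1 of KO2, its ratio was exactly 1 (within 1e-09). Psmb10 had 1.43 and 1.20 in KO1, 0.29 and 1.13 in KO2, and 1.03 and 0.92 in Control. Its KO1 libraries were above both Control libraries, by about the size of the SE (0.34 ± 0.31, limma adjusted p = 0.486).

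The index was lower than in Control for 36 of 47 proteasome genes in KO1 and 37 in KO2 (76.6% and 78.7%), where the share over all coding genes was 77% and 85.8%. Few of them passed the test, and none was higher past the threshold (0.27% of all coding genes were in KO1, 0.563% in KO2 and 0.578% for the average). In KO1, 3 of 47 members fell (Psmb8, Psmc4 and Psmg1), which is 6.38% of them, against 6.27% of all coding genes called in either direction and 6% called lower. In KO2, 9 of 47 members fell (Psma7, Psmb4, Psmb8, Psmc4, Psmd14, Psme4, Psmf1, Psmg1 and Psmg2), or 19.1%, against 29.6% of all coding genes called and 29% called lower. For the average of both knockouts, 6 members fell (Psma7, Psmb8, Psmc4, Psmc6, Psme4 and Psmg1), or 12.8%, against 26.5% called and 26% called lower. A call means a Benjamini-Hochberg adjusted p under 0.05 from limma over all 12974 genes. The KO1 and KO2 contrasts share the 2 Control libraries, so a gene named in both is not found independently in each.

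The median shift of the members was smaller than that of all coding genes, a difference that was not tested. The median member differed from Control by -0.25 in KO1, -0.25 in KO2 and -0.30 for the average, where the median of all coding genes was -0.37, -0.58 and -0.47. In KO1, 17 of 47 members were lower than the all-gene median, in KO2 12 and for the average 14. Both knockout libraries were under both Control libraries for 22 members in KO1 and 26 in KO2, where the share over all coding genes was 53.3% and 67%. All 4 knockout libraries were under both Control libraries for 15 members, where the share over all coding genes was 45.3%. The opposite order was seen for 7 members in KO1 (8.56% of all coding genes) and 1 in KO2 (4.99%). Among genes with spans between 7104 and 23164 bp, the quartiles of the members, the median difference for the average was -0.14 over 23 members and -0.44 over all 4184 coding genes. Once each library was centred on its own median, the median member stood at 0.12 in KO1, 0.31 in KO2 and 0.17 for the average, and limma called no member and no other gene. At an unadjusted limma p under 0.05 there were then 12 members in KO1, 7 in KO2 and 12 for the average, beside 2678, 2992 and 3063 of all coding genes.

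**Figure D2:**
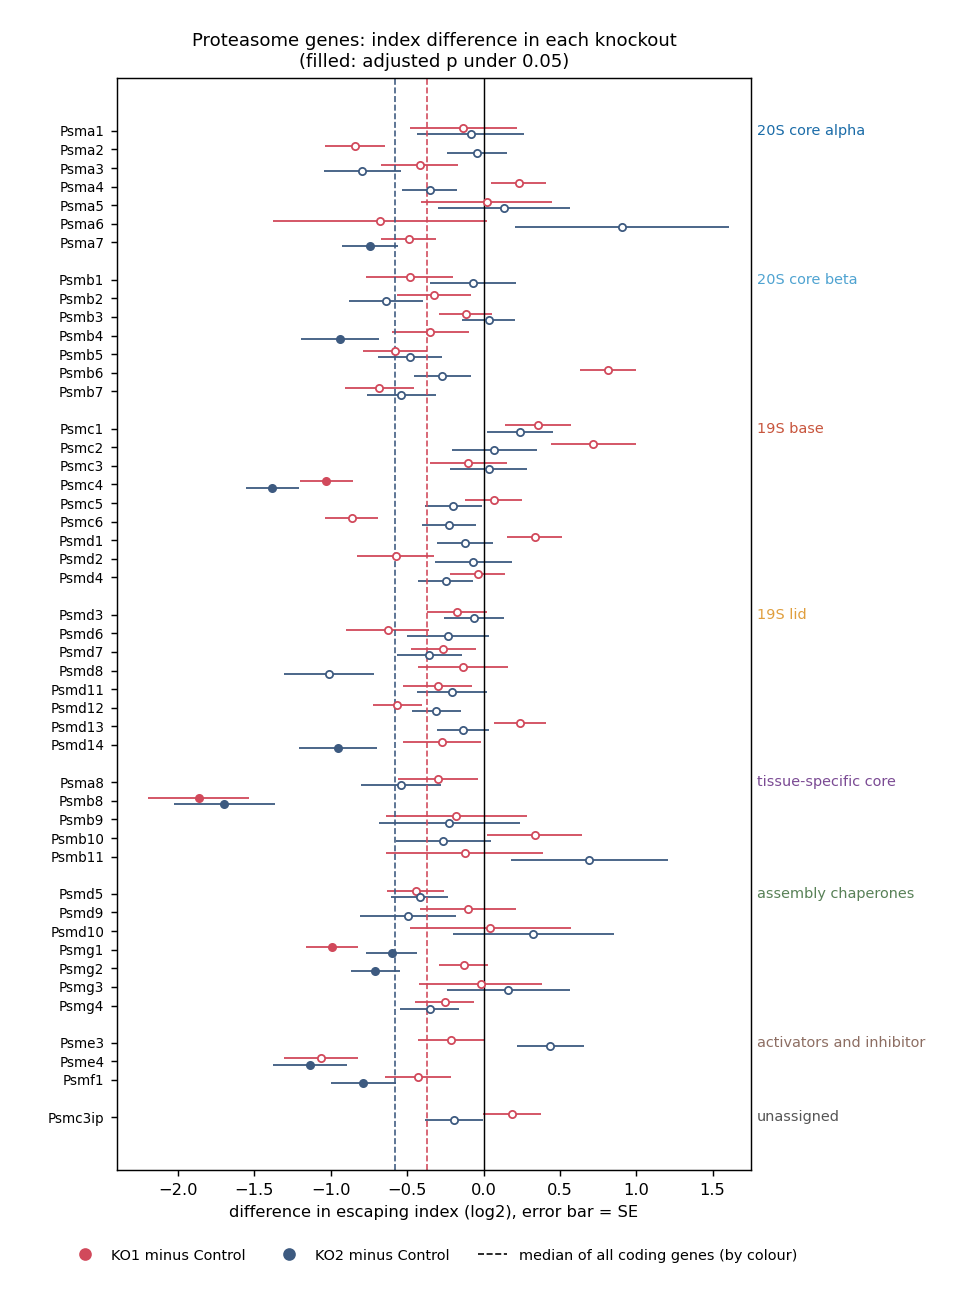
Difference in escaping index (log2) from Control for each of the 47 proteasome genes, grouped by role, for KO1 (red) and KO2 (blue), with SE bars and filled points for adjusted p under 0.05. The dashed lines mark the median of all coding genes (-0.37 in KO1 and -0.58 in KO2), and most points lie between those lines and 0 or to the right of 0.

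The promoters of 5 of the 6 genes that fell in the average contrast are shown to set their start regions beside each other. These are the 120 bases before the more upstream of the GENCODE and RefSeq starts (RefSeq sequence, GRCm38.p6), 5′ to 3′ on the gene's strand. Capitals mark GGGCGG, the GC box, or its reverse complement. The windows are Psmc4 chr7:28050102-28050221 (minus strand), Psmg1 chr16:95990961-95991080 (minus), Psme4 chr11:30771606-30771725 (plus), Psma7 chr2:180042465-180042584 (minus) and Psmc6 chr14:45329668-45329787 (plus).
Psmc4: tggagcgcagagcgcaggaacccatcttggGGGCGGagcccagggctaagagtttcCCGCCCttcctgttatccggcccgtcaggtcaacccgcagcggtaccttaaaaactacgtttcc
Psmg1: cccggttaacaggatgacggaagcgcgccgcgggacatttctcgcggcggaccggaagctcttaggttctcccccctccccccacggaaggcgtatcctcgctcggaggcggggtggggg
Psme4: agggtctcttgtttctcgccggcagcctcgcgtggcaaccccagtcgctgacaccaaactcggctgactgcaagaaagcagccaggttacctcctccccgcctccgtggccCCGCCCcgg
Psma7: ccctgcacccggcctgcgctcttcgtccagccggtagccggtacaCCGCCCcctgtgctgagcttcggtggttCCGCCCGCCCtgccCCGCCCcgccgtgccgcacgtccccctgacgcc
Psmc6: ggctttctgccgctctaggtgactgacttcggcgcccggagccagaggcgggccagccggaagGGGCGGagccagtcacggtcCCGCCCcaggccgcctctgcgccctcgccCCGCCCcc
Psma7 holds 4 GC boxes in its window, 2 of them overlapping, Psmc6 holds 3, Psmc4 holds 2 and Psme4 holds 1, whereas the Psmg1 window holds no such letters. In the longer RefSeq windows described further on, the GC box was in 53.8% of members and 35.9% of all promoters, sets chosen differently, as given there. Its share in windows of 120 bases was not counted. The sixth gene, Psmb8, is left out because its RefSeq start lies 405 bases inside the GENCODE model.

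The alpha ring had 1 gene that passed. Psma7 had an index of 3.99 and 3.70 in KO1, 3.59 and 3.59 in KO2, and 4.41 and 4.26 in Control. All 4 knockout libraries were lower than both Control libraries, and the 2 KO2 libraries were the lowest. The KO2 difference was -0.74 ± 0.18 (SE, limma adjusted p = 0.0338) and the average difference -0.62 ± 0.16 (limma adjusted p = 0.04), while the KO1 difference of -0.49 ± 0.18 did not pass (limma adjusted p = 0.133). After centring, Psma7 differed by -0.11 in KO1 and -0.19 in KO2. Psma7 shares its start region with Ss18l1, which starts on the opposite strand within 1 kb. The median alpha gene differed by -0.42 in KO1, -0.08 in KO2 and -0.11 for the average.

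Other alpha genes went apart between the knockouts, and none of them passed with the longest span. Psma4 had 5.59 and 5.56 in KO1, 4.87 and 5.12 in KO2, and 5.25 and 5.44 in Control, so KO1 lay above Control and KO2 under it. In the Psma4 model that starts 25 bases downstream, KO1 overlapped with Control. Psma2 had 4.22 and 3.98 in KO1, 4.81 and 4.98 in KO2, and 5.09 and 4.79 in Control, so only the KO1 libraries were separate from Control (-0.84 ± 0.20, limma adjusted p = 0.0596). The Psma2 model used spans 57465 bp and overlaps AW209491 on the same strand. The other coding model of Psma2 has its start and end at -3532 and -46600 bases relative to those of the model used. It differed from Control by 0.45 in KO1 and 0.14 in KO2, so the sign for KO1 turned with the model. RefSeq places the start of Psma2 at -3530 bases, near that of the other model. Psma6 had 5.53 and 6.01 in KO1, 8.46 and 6.26 in KO2, and 6.69 and 6.21 in Control. The 2 KO2 libraries of Psma6 stood further apart than those of any other member, and the KO2 difference of 0.91 ± 0.70 did not pass (limma adjusted p = 0.344). In the Psma6 model with the greatest exonic length, which starts 14553 bases downstream, KO2 had 4.51 and 4.41 against 5.18 and 5.13 in Control, and the KO2 difference was -0.69, opposite in sign and past the threshold when all genes were fitted with that choice of transcript (limma adjusted p = 0.03).

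In the beta ring none of the 3 catalytic subunits passed. All 3 were lower than Control in both KO2 libraries, as were 67% of all coding genes. In KO1, Psmb6 lay above Control (8.56% of all coding genes) and the other 2 under it (53.3%). The KO2 differences below stand beside a median of -0.58 over all coding genes. With each library centred, those of Psmb5, Psmb6 and Psmb7 were 0.07, 0.29 and 0.02. Psmb5, which carries the chymotrypsin-like activity, had 2.58 and 2.81 in KO1, 2.97 and 2.61 in KO2, and 3.18 and 3.37 in Control. All 4 knockout libraries were lower than Control, but neither difference passed (-0.58 ± 0.21 in KO1 with limma adjusted p = 0.126, and -0.48 ± 0.21 in KO2 with limma adjusted p = 0.127). Psmb7, with the trypsin-like activity, had 6.98 and 6.63 in KO1, 6.80 and 7.09 in KO2, and 7.37 and 7.60 in Control. It too was lower in all 4 knockout libraries without passing (-0.68 ± 0.22 in KO1 with limma adjusted p = 0.107, and -0.54 ± 0.22 in KO2 with limma adjusted p = 0.117). Psmb6, with the caspase-like activity, had 3.26 and 3.51 in KO1, 2.37 and 2.23 in KO2, and 2.64 and 2.50 in Control. Its KO1 libraries were above all others and its KO2 libraries under all others. The KO1 difference of 0.82 ± 0.18 was the closest of all members to a call for a higher index in KO1 (limma adjusted p = 0.0566), and the KO2 difference was -0.27 ± 0.18 (limma adjusted p = 0.293).

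Psmb4, a structural beta subunit, was the beta gene that passed. It had 2.31 and 2.45 in KO1, 2.09 and 1.48 in KO2, and 2.63 and 2.82 in Control. All 4 knockout libraries were lower than Control, and KO2 replicate 2 was the lowest. The KO2 difference was -0.94 ± 0.25 (limma adjusted p = 0.0422), against -0.35 ± 0.25 in KO1 (limma adjusted p = 0.382). Centred by library, Psmb4 differed by 0.03 in KO1 and -0.38 in KO2. When all transcripts of a gene were averaged instead, the KO2 difference of Psmb4 turned to 0.24 (limma adjusted p = 0.525). The median beta gene differed by -0.35 in KO1, -0.48 in KO2 and -0.48 for the average.

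The base held the member with the smallest p in both knockouts, Psmc4, an ATPase of the unfolding ring (chr7:28041707-28050101, minus strand, mm10). Its index was 3.09 and 2.97 in KO1, 2.59 and 2.77 in KO2, and 4.00 and 4.13 in Control. The 4 knockout libraries stood well apart from Control, by more than any distance between replicates. The differences were -1.03 ± 0.17 in KO1 (limma adjusted p = 0.0416), -1.38 ± 0.17 in KO2 (limma adjusted p = 0.017) and -1.21 ± 0.15 for the average (limma adjusted p = 0.0179). On the linear scale the ratio averaged 8.17 in KO1, 6.41 in KO2 and 16.7 in Control (geometric means). Psmc4 overlaps no other gene and has no opposite start within 1 kb among the annotated coding and long noncoding genes, the only classes searched. With each library centred, its average difference was -0.74, which did not pass, as no gene did.

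A second ATPase, Psmc6, had an index of 4.06 and 4.06 in KO1, 4.85 and 4.56 in KO2, and 4.95 and 4.90 in Control. Its KO1 libraries were the lowest, and 1 KO2 library lay close to Control. It passed for the average alone (-0.54 ± 0.15, limma adjusted p = 0.0495), and its KO1 difference of -0.86 ± 0.18 was just outside (limma adjusted p = 0.0501). The KO2 difference was -0.23 ± 0.18 (limma adjusted p = 0.35). With the transcript chosen by exonic length its adjusted p in limma for the average was 0.0505, outside the threshold. After centring, Psmc6 differed by -0.49 in KO1 and 0.33 in KO2, so its sign in KO2 turned with the scaling.

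None of the other base genes passed, and they lay on both sides of Control. Psmc2, also an ATPase, had 7.52 and 8.16 in KO1, 7.34 and 7.04 in KO2, and 7.23 and 7.01 in Control. Its KO1 libraries were above both Control libraries, though the difference of 0.72 ± 0.28 did not pass (limma adjusted p = 0.145), and Psmc2 starts within 1 kb of Dnajc2 on the opposite strand. Psmc1 had 5.07 and 4.80 in KO1, 4.89 and 4.74 in KO2, and 4.37 and 4.79 in Control, with an average difference of 0.30 ± 0.19 (limma adjusted p = 0.265). The scaffold gene Psmd1 had 6.27 and 6.25 in KO1, 5.78 and 5.82 in KO2, and 5.77 and 6.08 in Control. KO1 was above both Control libraries for Psmd1, by 0.33 ± 0.18 (limma adjusted p = 0.257), and KO2 overlapped with Control. Psmd2, which encodes the other scaffold of the base, had 3.42 and 3.65 in KO1, 3.81 and 4.27 in KO2, and 4.33 and 3.89 in Control. Its KO1 libraries were under both Control libraries, with a difference of -0.58 ± 0.25 (limma adjusted p = 0.18), and KO2 overlapped with Control. The remaining base genes, Psmc3, Psmc5 and the ubiquitin receptor gene Psmd4, had average differences between -0.14 and -0.03.

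**Figure D3:**
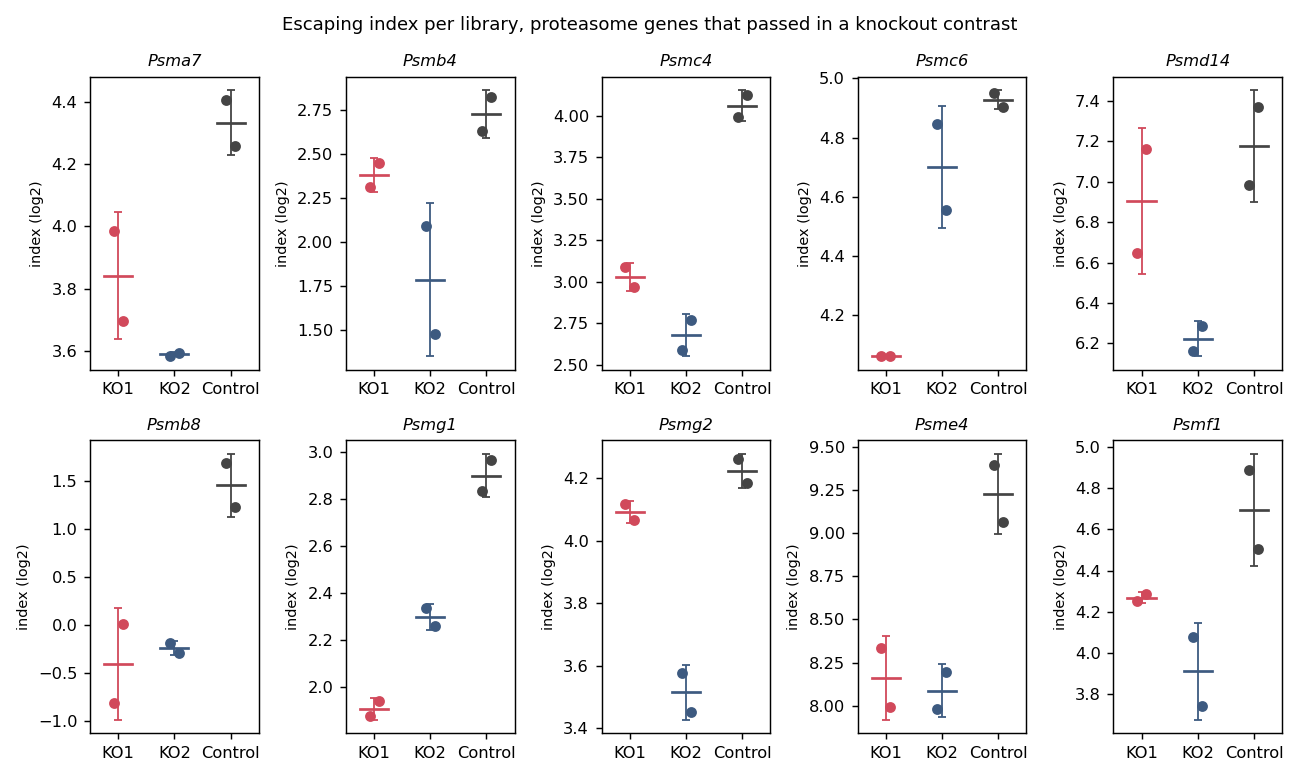
Escaping index (log2) in each library of the 10 proteasome genes that passed in at least 1 contrast against Control, with points for the 2 libraries of KO1, KO2 and Control, horizontal lines for means and bars for SD. Each panel has its own scale. All 4 knockout points are under both Control points in every panel but that of Psmd14, where 1 KO1 library (7.16) lies between the Control libraries.

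In the lid, the gene that passed was Psmd14, whose product cuts ubiquitin chains off the substrate. Psmd14 had an index of 6.65 and 7.16 in KO1, 6.16 and 6.29 in KO2, and 6.98 and 7.37 in Control. KO2 was lower than both other groups, while KO1 overlapped with Control. The KO2 difference was -0.95 ± 0.25 (limma adjusted p = 0.041) and the KO1 difference -0.27 ± 0.25 (limma adjusted p = 0.489). Centred by library, Psmd14 differed by -0.40 in KO2 and 0.10 in KO1. The lid subunit gene Psmd8 was just outside the threshold. It had 4.53 and 5.24 in KO1, 4.03 and 3.98 in KO2, and 4.79 and 5.25 in Control, and its KO2 difference was -1.01 ± 0.29 (limma adjusted p = 0.0503). The remaining 6 lid genes were Psmd3, Psmd6, Psmd7, Psmd11, Psmd12 and Psmd13. Their differences lay between -0.63 and 0.24 in KO1 and between -0.36 and -0.06 in KO2, and none passed. All 8 lid genes had a difference under 0 in KO2 and 7 of 8 in KO1, where the share over all coding genes was 85.8% and 77%.

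The index of Psmd8 differed widely between its coding models. It has 4 coding models that end at the same base and start 0, 28, 149 and 220 bases downstream of the longest. Their exonic lengths are 1540, 1512, 1391 and 1983 bases, so the fourth differs in its exons as well as its start. In order of start, the mean index was 4.88, 3.58, 2.13 and 0.32 in KO1, 4.00, 3.04, 1.95 and 0.53 in KO2, and 5.02, 4.04, 2.29 and 0.01 in Control (n = 2 each). Between the first and the last start the Control level differed by 5.01, more than any pair of groups at the same start. The KO2 difference was -1.01 at the longest model, close to that at the second, and -0.34 and 0.52 at the other two, and the KO1 difference was -0.14, -0.46, -0.16 and 0.31, so the sign turned at the fourth model. RefSeq places the start of Psmd8 at the second of these positions. The region is printed to show the bases that separate the first 2 starts (RefSeq sequence, GRCm38.p6, chr7:29180673-29180761, minus strand), with each of the 2 start bases in capitals.
Psmd8: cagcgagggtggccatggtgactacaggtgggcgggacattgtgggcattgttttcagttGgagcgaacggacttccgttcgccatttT
The sequence ends at the second start base, and the Control indices of the models that start at the capitals, 28 bases apart, differed by 0.97. In all, 27 of the 47 members have more than 1 coding model in the table, with 93 coding models between them and the 20 members that have 1 each.

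**Figure D4:**
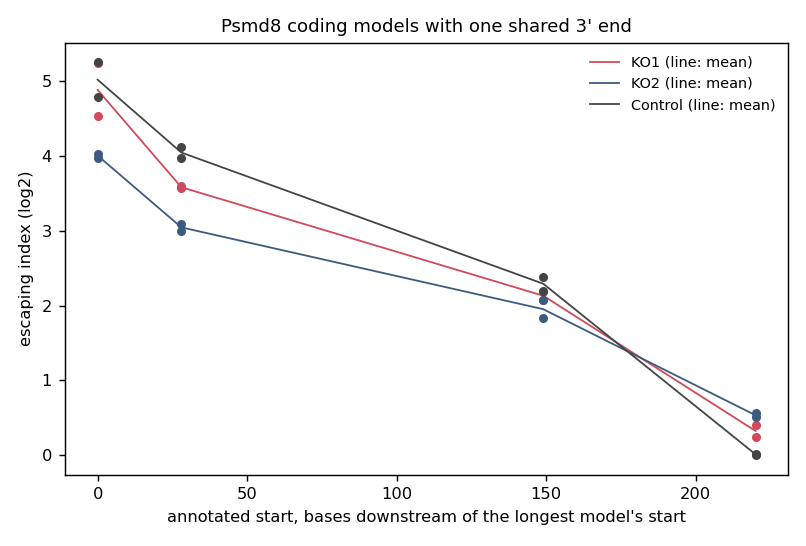
Escaping index (log2) of the 4 coding models of Psmd8 that share a 3′ end, against the distance of their annotated start from that of the longest model (bases), with points for libraries and lines for group means of KO1, KO2 and Control. The index drops in all 3 groups as the start moves downstream, and KO2 is lowest at the first 3 starts and highest at the fourth.

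Among the assembly chaperones, both members of the Psmg1 and Psmg2 pair passed in KO2. Their products form a dimer that helps the alpha ring to assemble. Psmg1 had an index of 1.88 and 1.94 in KO1, 2.34 and 2.26 in KO2, and 2.83 and 2.97 in Control. The 3 groups did not overlap, with KO1 the lowest. The differences were -0.99 ± 0.17 in KO1 (limma adjusted p = 0.0416), -0.60 ± 0.17 in KO2 (limma adjusted p = 0.0459) and -0.80 ± 0.15 for the average (limma adjusted p = 0.021). Psmg2 had 4.12 and 4.07 in KO1, 3.58 and 3.45 in KO2, and 4.26 and 4.18 in Control. Here KO2 was the lowest, with a difference of -0.71 ± 0.16 (limma adjusted p = 0.0289), and the KO1 libraries lay only just under Control (-0.13 ± 0.16, limma adjusted p = 0.604). Both KO2 differences stand beside a median of -0.58 over all coding genes. With each library centred, Psmg1 differed by -0.61 in KO1 and -0.045 in KO2, and Psmg2 by 0.25 and -0.15. Psmg2 starts within 1 kb of Cep76 on the opposite strand. The second chaperone pair of the alpha ring, Psmg3 and Psmg4, and the base chaperones Psmd5, Psmd9 and Psmd10 had average differences between -0.43 and 0.19, and none passed.

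Of the activators and the inhibitor, Psme4 and Psmf1 fell in KO2. Psme4 had an index of 8.33 and 7.99 in KO1, 7.98 and 8.20 in KO2, and 9.39 and 9.06 in Control. All 4 knockout libraries were lower than Control by more than the spread between replicates. The difference was -1.14 ± 0.24 in KO2 (limma adjusted p = 0.0255) and -1.10 ± 0.21 for the average (limma adjusted p = 0.0226), and in KO1 it was -1.07 ± 0.24, just outside the threshold (limma adjusted p = 0.0568). A shorter coding model of Psme4 that starts 595 bases downstream differed by -0.28 in KO1 and -0.49 in KO2. After centring, the longest model differed by -0.69 in KO1 and -0.58 in KO2. Psmf1, whose product PI31 binds and inhibits the core in vitro, had 4.25 and 4.29 in KO1, 4.08 and 3.74 in KO2, and 4.89 and 4.50 in Control. Its KO2 difference was -0.79 ± 0.22 (limma adjusted p = 0.044), and its KO1 difference -0.43 ± 0.22 (limma adjusted p = 0.227). After centring, Psmf1 differed by -0.23 in KO2 and -0.05 in KO1. Psme3, a nuclear activator of the core, had 4.50 and 4.33 in KO1, 5.30 and 4.83 in KO2, and 4.55 and 4.71 in Control. KO2 was above Control and KO1 under it, and neither difference passed (0.44 ± 0.22 in KO2 with limma adjusted p = 0.168, and -0.21 ± 0.22 in KO1 with limma adjusted p = 0.533).

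Among the tissue-specific core genes, Psmb8 fell in both knockouts. Psmb8 is the immune counterpart of Psmb5, induced by interferon and known mainly from immune tissue. It had an index of -0.82 and 0.00 in KO1, -0.19 and -0.29 in KO2, and 1.69 and 1.22 in Control, so the knockouts and Control were well apart. The differences were the most negative among the members, at -1.86 ± 0.33 in KO1 (limma adjusted p = 0.0444), -1.70 ± 0.33 in KO2 (limma adjusted p = 0.0225) and -1.78 ± 0.29 for the average (limma adjusted p = 0.0185). After centring, Psmb8 differed by -1.49 in KO1 and -1.14 in KO2. The ratio of Psmb8 was exactly 1 in the second KO1 library, and the read depth behind it is unknown. Psmb8 also overlaps Gm20496 on the opposite strand, and without knowledge of strand in the counting the signal of the 2 genes cannot be told apart. A second coding model of Psmb8, starting 69 bases upstream, differed by -0.96 in KO1 and -1.22 in KO2. Psma8, the testis alpha subunit, differed by -0.30 ± 0.26 in KO1 and -0.54 ± 0.26 in KO2, and neither it nor Psmb9, Psmb10 or Psmb11 passed.

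Side by side, core and lid genes had similar median differences and base genes a median closer to 0. For the average of both knockouts the median was -0.36 over 14 core genes, -0.37 over 8 lid genes and -0.07 over 9 base genes, against -0.47 over all coding genes. In KO1 the medians for core, lid and base were -0.38, -0.27 and -0.04, and in KO2 -0.31, -0.27 and -0.12. Within the core, the alpha ring had a median of -0.11 for the average, -0.42 in KO1 and -0.08 in KO2. The beta ring had -0.48, -0.35 and -0.48. For the average and in KO2, a median near that of the base was thus also seen in the alpha ring. Base genes spread widely, between -1.21 for Psmc4 and 0.39 for Psmc2 in the average contrast, whereas lid genes lay between -0.61 and 0.05. Core genes lay between -0.64 and 0.27. Differences were under 0 in 11 of 14 core genes, 7 of 8 lid genes and 6 of 9 base genes, against 84.6% of all coding genes. These differences between the subcomplexes are described and were not tested. The lid median was -0.17 without Control replicate 1, and the base median was -0.14 without Control replicate 2. By library, the median core index was 4.46 and 4.71 in KO1, 4.84 and 4.84 in KO2, and 4.97 and 4.90 in Control. The median base index was 4.31 and 4.68 in KO1, 4.85 and 4.56 in KO2, and 4.86 and 4.79 in Control, with 1 KO2 library between the Control libraries. The median lid index was 5.35 and 5.37 in KO1, 5.04 and 5.12 in KO2, and 5.48 and 5.26 in Control, where both KO1 libraries lay between the Control libraries. With each library centred, the average medians were 0.11 for the core, 0.10 for the lid and 0.40 for the base, so the sign of all 3 depends on the scaling while the base remained the highest.

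Compared directly, KO1 and KO2 differed for no member past the threshold by limma (adjusted p under 0.05), nor for any of the 12974 coding genes (0%). At an unadjusted limma p under 0.05 there were 9 members and 20.5% of all coding genes. The median of KO1 minus KO2 was 0.07 for the members and 0.20 for all coding genes, and the difference was under 0 for 22 members and 32.4% of all coding genes. Both KO1 libraries were above both KO2 libraries for 18 members (41.8% of all coding genes) and under them for 8 members (13.3%). The members with the smallest p and a higher index in KO1 were Psmb6 (1.09 ± 0.18, limma adjusted p = 0.125), Psmg2 (0.58 ± 0.16, limma adjusted p = 0.157) and Psma4 (0.58 ± 0.18, limma adjusted p = 0.175). Those with a lower index in KO1 were Psma2 (-0.80 ± 0.20, limma adjusted p = 0.143), Psmc6 (-0.64 ± 0.18, limma adjusted p = 0.156) and Psme3 (-0.65 ± 0.22, limma adjusted p = 0.192). In each of these 6 genes, with the model used, the 2 KO1 libraries lay on one side of the 2 KO2 libraries. This did not hold in the other coding model of Psma2, where KO1 had 3.81 and 4.06 against 3.38 and 3.85 in KO2. The groups overlapped there, and the KO1 mean was the higher (3.93 against 3.62). Both KO1 libraries were above and both KO2 libraries under Control for Psma4, Psmb6 and Psmd13 (2.74% of all coding genes), and the reverse held for Psme3 (0.678%). For Psma4 and Psmd13 this order did not hold in other coding models, as given further on.

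Genes of the same pathway outside the symbol rule were also mostly lower in the knockouts. Of 29 listed symbols 27 were measured, with a median difference of -0.42 in KO1, -0.44 in KO2 and -0.37 for the average, where the proteasome genes had -0.25, -0.25 and -0.30 and all coding genes -0.37, -0.58 and -0.47. None passed in KO1 by limma (9 at an unadjusted p under 0.05, where 4167 of 12974 coding genes were), 8 fell in KO2 (29.6% of them, against 29.6% of all coding genes called) and 10 fell for the average (Ecpas, Nfe2l1, Ngly1, Nploc4, Rad23b, Txnl1, Uba6, Ubqln2, Vcp and Zfand5), and none was higher past the threshold. Nfe2l1, the transcription factor of proteasome genes, had an index of 3.53 and 3.61 in KO1, 3.68 and 3.23 in KO2, and 4.27 and 4.54 in Control. All 4 knockout libraries of Nfe2l1 were lower than Control, with an average difference of -0.89 ± 0.19 (limma adjusted p = 0.0274). Ngly1, which removes glycans from the Nfe2l1 protein and so helps to activate it, had 0.88 and 1.11 in KO1, 0.42 and 0.42 in KO2, and 1.74 and 1.81 in Control. Its average difference was -1.06 ± 0.16 (limma adjusted p = 0.0182). Vcp, the ATPase p97 that extracts ubiquitin-tagged proteins for the proteasome, had 5.60 and 5.50 in KO1, 5.88 and 5.70 in KO2, and 6.22 and 6.64 in Control, with an average difference of -0.76 ± 0.18 (limma adjusted p = 0.035). Ddi2, the protease that cuts Nfe2l1, did not pass, at -0.49 ± 0.17 for the average (limma adjusted p = 0.0777). These counts stand beside 26.5% of all coding genes called in the average contrast.

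The start regions of the members varied in sequence. RefSeq promoter windows (250 bases before to 50 after the start, GRCm38.p6) were found for 39 of the 47 members, and 10 motifs were searched on both strands beside 32544 distinct promoters. GGGCGG was in 21 of 39 members (53.8%) and 35.9% of all promoters, and CCGGAAGT, an ETS-type motif, in 8 (20.5%) and 3.92%. TGACNNNGC, a loose form of the antioxidant response element that Nfe2l1 and its relatives can bind, was in 6 (15.4%) and 12.4%, and the stricter TGACTCAGC was in 0 members and 0.458% of promoters. The others were CCAAT (15 members, 37.4% of promoters), TATAAA (4, 13.6%), CACGTG (4, 7.17%), TGCGCA (6, 7.79%), TGACTCA (1, 5.19%) and TGACGTCA (0, 1.8%). TGACTCA lies within TGACTCAGC, and every TGACTCAGC is also a TGACNNNGC. These matches are descriptions of letters in a window. Of the 8 genes that fell in KO2 and have a RefSeq window (all but Psmg2), Psma7, Psmc4, Psmd14 and Psme4 had GGGCGG in it.

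Neighbouring genes limit some values. Only annotated coding and long noncoding genes were searched. Of the 47 members 14 overlap another such gene, 4 of them on the same strand (Psma2, Psmd1, Psmd12 and Psmg3), and 11 have an opposite-strand start within 1 kb. The part of neighbours in these values was not tested. The calls themselves rest on few libraries. Leaving out 1 library left 1 in a group, and calls were then lost among the members and among all coding genes alike. In those fits the median member differed by -0.36 to -0.25 in KO1, -0.31 to -0.25 in KO2 and -0.34 to -0.25 for the average. The median of all coding genes was then -0.38 to -0.35, -0.59 to -0.56 and -0.47 to -0.45.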

How the data were processed

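The deposited table holds log2 values of an escaping index for 68473 transcripts in 6 libraries, 2 for each of 3 groups. In every library these log2 values were a ratio plus an offset of 0.5 times the smallest linear value, as tested on the table, and the commonest ratio was exactly 1. The mm10 build and the tools Trimmomatic 0.38, HISAT2 2.1.0, featureCounts and CASAVA are named, per the submitters' processing notes. The sources used here give neither their roles nor the index windows, the use of strand or the depth, so intervals based on counting are left out.

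Identifiers were matched without version to GENCODE M21, and 68397 matched and 76 did not. For each of 12974 coding genes the protein-coding transcript with the longest span was used. Of 49 coding genes with a proteasome symbol, 47 had such a transcript. The values were tested as deposited, since they were already log2. The planned pseudocount became an alternative. Libraries were not rescaled. All 6 libraries entered 1 limma fit of group means (limma 3.58.1, R 4.3.3, moderated variances with a trend, two-sided, 3 residual degrees of freedom, Benjamini-Hochberg adjustment over all 12974 genes, threshold 0.05), after a test on simulated data. SE is the fitted standard error. Tables and figures used Python 3.11.15, pandas 2.3.3, numpy 2.4.6, scipy 1.17.1 and matplotlib 3.10.9. The members, subcomplex lists and pathway list were chosen with earlier results of these data known. Values per library were given for called members, the 3 with the smallest p in each direction and contrast, the 3 highest and 3 lowest in Control, and the catalytic subunits. Psmd2, Psmd8, Psmd13 and the pathway genes given by library were chosen after their values were seen. Same-numbered libraries did not deviate together. Alternatives were a replicate block, leaving out each library, median centring, quantile normalization, other choices of transcript, a pseudocount 10 times larger, a filter on ratios at or under 1, no variance trend, and other groupings.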

Additional observations from a re-analysis of the deposited data

Results flagged for a closer look

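In 4 proteasome genes the 2 knockouts lay on opposite sides of Control, with both libraries of one above and both of the other under both Control libraries. KO1 minus KO2 was 0.58 for Psma4 (limma adjusted p = 0.175), 1.09 for Psmb6 (limma adjusted p = 0.125) and 0.37 for Psmd13 (limma adjusted p = 0.289), where KO1 was the higher. For Psme3 it was -0.65 (limma adjusted p = 0.192), where KO2 was the higher. None of the 4 differences passed. Over all coding genes, 2.74% had KO1 above and KO2 under Control, and 0.678% had the reverse order. Psmd13 had 5.37 and 5.50 in KO1, 5.05 and 5.07 in KO2, and 5.30 and 5.09 in Control, and it starts within 1 kb of Sirt3 on the opposite strand. The order depended on the coding model. In the Psmd13 model that starts 8 bases downstream, KO2 had 5.03 and 5.09 against 5.28 and 4.99 in Control. In the Psma4 model that starts 25 bases downstream, KO1 had 3.84 and 3.68 against 3.79 and 3.82 in Control. For Psme3 the order held in a shorter model with the same start, but not in that starting 764 bases downstream.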

How the results depend on the processing

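With median centring or quantile normalization, 0 members were called in KO1, KO2 or the average, and no other coding gene was. The median difference of the members was then 0.12 and 0.12 in KO1, 0.31 and 0.34 in KO2, 0.17 and 0.17 for the average, and -0.11 and -0.14 for KO1 minus KO2. The average medians became 0.11 and 0.11 for the core, 0.40 and 0.41 for the base, and 0.10 and 0.10 for the lid. With the mean over all transcripts of a gene, 0 members were called in KO1, 3 in KO2 and 2 for the average. The share over all 17349 genes in that fit was 0%, 7.06% and 5.98%. The medians were -0.15 in KO1, -0.14 for the average, -0.11 for the core and -0.082 for the lid. Psmb4 in KO2 changed sign to 0.24. With only KO1 and Control in the fit, 0 members and 0% of all coding genes were called. With only KO2 and Control, 6 members and 21.3% of all coding genes were. With the 4 knockout libraries as 1 group, 3 members and 14.6% of all coding genes were called. Same-numbered libraries shared only a number (correlations of their deviations 0.00165, -0.00897 and 0.00774). With the replicate block, 0 members were called in KO1, 7 in KO2, 4 for the average and 0 for KO1 against KO2. Over all coding genes the shares were 0%, 22.5%, 19.2% and 0%. Leaving out 1 library at a time left 1 library in a group, and calls were then lost among members and all coding genes alike. The medians then ranged over -0.36 to -0.25 in KO1, -0.45 to -0.24 for the core, -0.41 to -0.17 for the lid and 0.073 to 0.23 for KO1 minus KO2. The cause of the lost calls was not tested. Longest exonic length, the larger pseudocount, the ratio filter (which left Psmb8 out) and no variance trend kept every count of calls within 1.5 times. The unknown depth limits all values, those of short transcripts with a ratio of exactly 1 included.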

Other observations

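Psme1 and Psme2, the 2 subunits of the interferon-inducible activator PA28, had no protein-coding transcript in the table and were not counted as members. Psme1 was listed with a retained-intron and a nonsense-mediated decay model, and Psme2 with 3 retained-intron models. The retained-intron model of Psme1 had an index of -1.67 and -1.57 in KO1, -0.38 and 1.25 in KO2, and -0.85 and -0.93 in Control. KO1 was lower than Control there and KO2 higher, in all libraries. The longest Psme2 model had 1.99 and 0.57 in KO1, 1.43 and 1.29 in KO2, and 0.83 and -0.76 in Control, so KO1 overlapped with Control. These models span between 782 and 2096 bp and need not begin at a promoter.

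The ubiquitin-activating enzyme gene Uba1, chosen after its values were seen, had 6.97 and 7.66 in KO1, 5.62 and 6.08 in KO2, and 6.10 and 6.65 in Control. KO1 was above both other groups, with a difference from KO2 of 1.46 that did not pass (limma adjusted p = 0.136). Psmc3ip, the meiotic factor with a proteasome symbol, had 3.06 and 3.11 in KO1, 2.74 and 2.67 in KO2, and 3.07 and 2.73 in Control, so both knockouts overlapped with Control.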
